A study of Mus musculus with 8 samples.

Results

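The genes described here encode 9 factors by which glia act on neurons and on one another. Bdnf and Ntf3 are neurotrophins, Gdnf and Cntf neurotrophic factors, Csf1 the microglial growth factor, and Fgf2, Vegfa, Hgf and Pdgfa growth factors. They were taken by symbol from the deposited tables and joined by Ensembl identifier. All 9 of 9 were found once in each table, among 31406 genes in the table of both treatments, and 8 of the 9 passed the low-count filter, Cntf being the exception. The cells were labelled as microglia in primary culture from wild-type mice, and according to the methods of the study they were prepared from the striatum of C57/BL6 pups 2 to 4 days old. After 15 days in culture all cells received LPS (lipopolysaccharide) together with interferon-γ for 48 h, and ligand additions were made 24, 32 and 40 h into this activation. SCH 58261, which blocks the adenosine A2A receptor, was given alone in 4 libraries (A2A antagonist group), and together with 2-Cl-IB-MECA, an agonist of the adenosine A3 receptor used at 200 nM, in the other 4 (dual group). The groups follow the titles of the samples. The treatment field contradicts them, since it lists 2-Cl-IB-MECA where the title has SCH 58261 only and lacks it where the title has both ligands. The headers of the deposited columns distinguish the groups as the titles do. Each direction given below therefore depends on the titles and these headers being right.

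Neurotrophins act through Trk receptor kinases and the shared receptor Ngfr. Gdnf binds Gfra1 and signals through Ret, and Cntf binds Cntfr and signals through Lifr and Il6st. Csf1 sustains microglia through Csf1r, while Fgf2, Vegfa, Hgf and Pdgfa act through the receptor kinases Fgfr1 to Fgfr3, Kdr and Flt1, Met, and Pdgfra. In brain tissue several of these factors come from astrocytes and other cells beside microglia, so the composition of a culture bears on how their transcripts are read.

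Total counts ranged from 32630602 to 45878639 per library, and levels are given as CPM, counts scaled to a common library total with TMM factors. Microglia markers were well represented, with C1qa, a complement subunit, at 458 and Csf1r at 44.6 CPM per kilobase (TMM-scaled CPM divided by the deposited gene length) in the A2A antagonist group. The homeostatic marker P2ry12 was low, at 0.653. Markers of astrocytes reached the same order, with Gfap at 388 and Aqp4 at 258, and fibroblast markers were also present, with Dcn at 92.1. On this scale the 7 astrocyte markers summed to between 957 and 1005 in the A2A antagonist libraries and between 974 and 1038 in the dual libraries. The 10 microglia markers summed to between 688 and 786 and between 647 and 680, and C1qa, at 458 on average, made up most of the former. Of these 10 markers, 4 had a higher and 6 a lower value in the dual group by log2 fold change. Fibroblast markers summed to between 263 and 297 and between 266 and 335, oligodendrocyte markers to between 193 and 207 and between 174 and 192, and mural cell markers to between 62.3 and 69.9 and between 65.2 and 72.5. Of all these markers C1qa alone was called between the groups, and its call was lost without A2A antagonist replicate 2, 3 or 4 (adjusted p-values 0.0648, 0.0791 and 0.0932 in edgeR) and without dual replicate 3 (0.0650). The levels below are thus sums over several cell types, and in bulk RNA fewer cells of a type and less RNA per cell cannot be told apart. The study itself reported a high purity of microglial cells by anti-CD11b labelling. How that measurement relates to these marker sums was not tested. Markers of neurons summed to between 5.38 and 6.16 and those of endothelial cells to between 7.36 and 10.002, with Rbfox3 at 0.025 and Tie1 at 0.0079, and Cldn5 was not listed.

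The windows upstream of the transcription start of 3 members are shown, for the member furthest below the control mean (Bdnf), the one with the highest level (Csf1) and one close to the control mean that holds the same letters as Bdnf (Gdnf). They are the 250 bases before a RefSeq start on GRCm38.p6, 5′ to 3′ on the strand of the gene, and none of the 3 overlaps an annotated exon. Capitals mark the letters TGACG, a half-site of the cyclic AMP response element, read on either strand, or 1 form of the κB site, also on either strand. Both forms were chosen after the windows had been seen.
Bdnf, chr2:109692186-109692435, plus strand: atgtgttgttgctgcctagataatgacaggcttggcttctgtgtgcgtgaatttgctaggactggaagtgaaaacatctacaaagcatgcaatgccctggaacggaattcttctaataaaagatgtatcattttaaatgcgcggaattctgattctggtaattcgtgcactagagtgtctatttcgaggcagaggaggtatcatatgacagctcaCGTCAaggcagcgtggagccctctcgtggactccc
Gdnf, chr15:7809798-7810047, plus strand: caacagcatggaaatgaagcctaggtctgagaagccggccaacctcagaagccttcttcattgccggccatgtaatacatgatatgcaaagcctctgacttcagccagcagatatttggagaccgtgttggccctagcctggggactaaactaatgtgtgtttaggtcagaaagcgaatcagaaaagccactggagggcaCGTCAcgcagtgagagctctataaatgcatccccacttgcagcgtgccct
Csf1, chr3:107760470-107760719, minus strand: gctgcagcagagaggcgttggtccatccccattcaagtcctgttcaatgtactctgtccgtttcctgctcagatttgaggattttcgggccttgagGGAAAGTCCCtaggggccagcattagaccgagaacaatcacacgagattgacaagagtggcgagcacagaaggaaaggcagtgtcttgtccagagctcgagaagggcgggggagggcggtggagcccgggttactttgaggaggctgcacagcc

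The half-site lies 35 bases before this start of Bdnf and 50 bases before that of Gdnf, and the κB form lies 154 bases before the start of Csf1. RefSeq gives Bdnf 7 such starts, and the half-site was found upstream of 1 of them. For Gdnf it gives 2, and the half-site was likewise found upstream of 1. The Gdnf window shown ends at 7810047, before the deposited gene start at 7810846. This start of Gdnf therefore lies outside the gene as it was counted. All 9 members matched the RefSeq table, with 20 windows in all. TGACG was present in 5 of these 20 windows, those of Bdnf, Fgf2, Gdnf, Pdgfa and Vegfa, against 17.7% of the 32817 windows of all genes. The matching windows of Fgf2, Pdgfa and Vegfa lie largely within annotated exons, for 250, 232 and 218 of their 250 bases. The κB form was present in 1 of 20, that of Csf1, against 4.11% of all windows. The full cyclic AMP response element, TGACGTCA, was in 0 of 20, against 1.55% of all windows. The letters ACGTG, on either strand, were in 5 of 20, against 16.6% of all windows. In the Bdnf and Gdnf windows shown they overlap the capitals, so another reading of these letters exists. A match is only a match of letters, and the counts were made per gene, so they do not tell which start was used.

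Csf1 was by far the most abundant of the 9 transcripts. Levels of different genes were compared in CPM per kilobase. On this scale Csf1 had 225 ± 8.35 (SD, n = 4) in the A2A antagonist group and 209.4 ± 7.41 (SD, n = 4) in the dual group, and exceeded 99.3% of protein-coding genes in the former. It took between 73.9% and 77.2% of the summed level of the 9 genes in a library. Fgf2 followed with 31.2 ± 0.50 (SD, n = 4) and 32.9 ± 2.04 (SD, n = 4), then Vegfa with 20.9 ± 0.867 (SD, n = 4) and 21.4 ± 1.15 (SD, n = 4), and Pdgfa with 9.34 ± 0.305 (SD, n = 4) and 9.35 ± 0.691 (SD, n = 4). The other genes were lower. Bdnf had 3.48 ± 0.164 (SD, n = 4) and 3.75 ± 0.107 (SD, n = 4), and Hgf 1.99 ± 0.0943 (SD, n = 4) and 2.04 ± 0.209 (SD, n = 4). Gdnf had 1.08 ± 0.0236 (SD, n = 4) and 1.09 ± 0.0786 (SD, n = 4). The lowest were Ntf3, with 0.504 ± 0.0131 (SD, n = 4) and 0.486 ± 0.143 (SD, n = 4), and Cntf, with 0.160 ± 0.0625 (SD, n = 4) and 0.117 ± 0.0438 (SD, n = 4). Every neighbouring pair in this order was separated over the 8 libraries, in that the lowest library of the higher gene lay above the highest library of the lower one. The narrowest gap by ratio of means was that of Fgf2 over Vegfa, 1.52-fold, and the widest that of Csf1 over Fgf2, 6.78-fold. Of the exonic bases of Cntf 78.9% are shared with Zfp91 on the same strand, and its level was divided by the full length. Its place below Ntf3 is therefore uncertain.

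**Figure D1:**
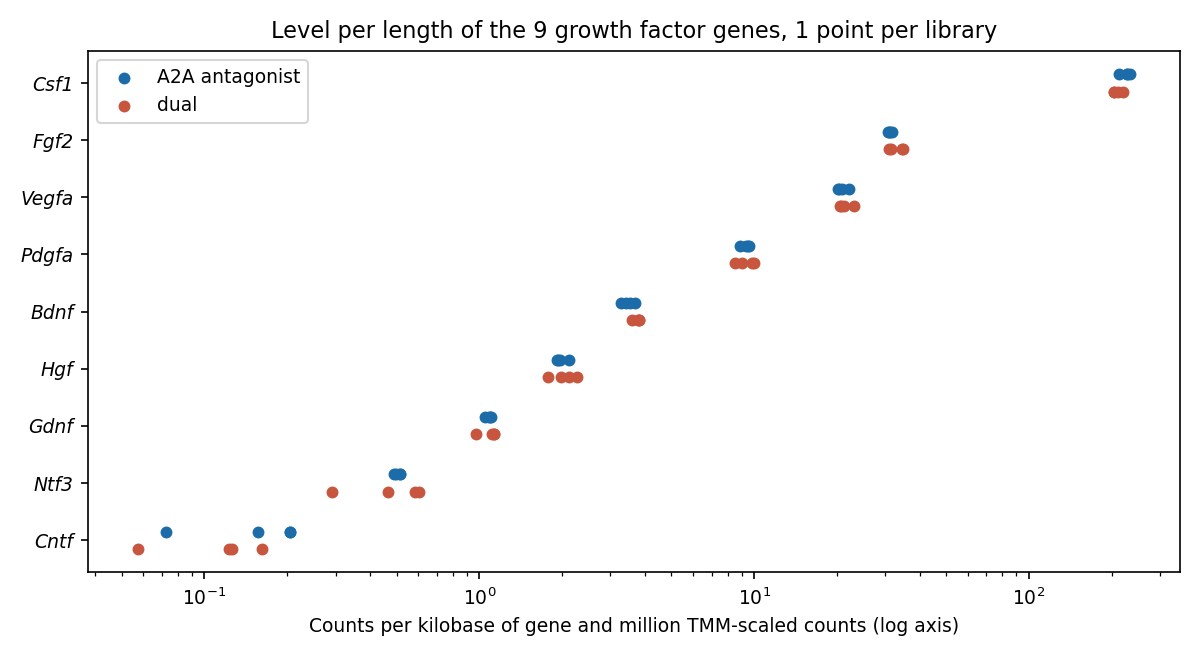
Level per length of the 9 genes (log axis, TMM-scaled CPM per kilobase of gene), with 1 point for each of the 4 A2A antagonist and 4 dual libraries. Csf1 lies above 200 in every library and Cntf below 0.21, and no neighbouring pair of genes overlaps. The place of Cntf is uncertain, since most of its exonic bases are shared with Zfp91.

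The comparison of the dual with the A2A antagonist group asked whether activation of the A3 receptor altered these transcripts beyond blockade of the A2A receptor. None of the 8 members tested passed an adjusted p-value of 0.05 over all genes (edgeR quasi-likelihood test), where 0.208% of the 18756 genes tested did (0.048% higher and 0.16% lower in the dual group). Without adjustment 2 of 8, Csf1 and Bdnf, had p-values below 0.05, against 12.8% of all genes, and the DESeq2 Wald test, which gave an adjusted p-value for 6 members, called 0, with 1 (Csf1) under an unadjusted 0.05. The groups overlapped for all 8, whereas 7.42% of all genes tested did not overlap. The median log2 fold change of the 8 was 0.02, beside 0.0038 over all genes tested.

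Csf1, the ligand that keeps microglia alive and proliferating, was the member with the smallest p-value. Its levels in TMM-scaled CPM were 1127, 1196, 1198 and 1232 in A2A antagonist replicates 1 to 4 and 1116, 1157, 1077 and 1073 in dual replicates 1 to 4. The lowest A2A antagonist library lay below dual replicate 2 and the other 3 lay above all dual libraries. The log2 fold change was -0.10 (SE 0.03, adjusted p-value 0.196 in edgeR), with a 95% interval of -0.18 to -0.03, that is -11.5% to -2.14%. By exact permutation of the libraries (two-sided, 70 arrangements) p was 0.0571, where the smallest possible is 0.0286. Its receptor Csf1r went the other way in value: it had between 211 and 223 CPM in the A2A antagonist libraries and between 225.7 and 244 CPM in the dual libraries, which did not overlap. The log2 fold change of Csf1r was 0.11 (SE 0.03, adjusted p-value 0.171 in edgeR), so that neither the ligand nor the receptor passed. Il34, the other ligand of Csf1r, had a log2 fold change of -0.08 (SE 0.09). Of the 10 microglia markers 4 had a positive and 6 a negative value, with a median log2 fold change of -0.02. The lowest were those of C1qa, at -0.24 (adjusted p-value 0.0240 in edgeR), and Aif1, at -0.21 (adjusted p-value 0.110). The part of these markers in the value of Csf1 was not tested.

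Bdnf, which supports neuronal survival and synaptic plasticity through Ntrk2, had 22.8, 20.4, 21.97 and 21.2 CPM in the A2A antagonist libraries and 23.7, 22.3, 23.6 and 23.6 CPM in the dual libraries. Dual replicate 2 fell within the range of the A2A antagonist group and the other 3 lay above it. The log2 fold change was 0.11 (SE 0.05, adjusted p-value 0.384 in edgeR; 95% interval 0.0015 to 0.22), and p was 0.0571 by exact permutation. The upper bound corresponds to 16.4%. Its count is uncertain where it overlaps Gm45346, which lies on the opposite strand and shares 14.4% of the exonic bases of Bdnf. Ntf3, the ligand of Ntrk3, had 0.855, 0.879, 0.885 and 0.836 CPM with the antagonist, a narrow group, and 0.796, 0.998, 0.501 and 1.04 CPM with both ligands. These values stand for 33 to 40 and 23 to 46 counts per library. Dual replicate 3 was the lowest of all 8 libraries and dual replicate 4 the highest. The log2 fold change of Ntf3 was -0.06 (SE 0.24, adjusted p-value 0.954), it was 0.13 without dual replicate 3, and its 95% interval was -0.57 to 0.46. The coefficient of variation was 2.61% in the A2A antagonist group and 29.5% in the dual group. At a mean of 37 counts, counting noise alone gives a wider spread than 2.61%. The narrow A2A antagonist range therefore understates the uncertainty of Ntf3.

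Gdnf, a survival factor of dopaminergic neurons, lay between 3.85 and 4.04 CPM in the A2A antagonist libraries and between 3.57 and 4.17 CPM in the dual libraries. In the dual group 3 libraries were at 4.10 to 4.17 CPM and replicate 3 was below them. The log2 fold change was 0.0073 (SE 0.10, adjusted p-value 0.986), turning negative without A2A antagonist replicate 3 or dual replicates 1, 2 or 4, and the interval reached from -0.21 to 0.23. Cntf, a member of the interleukin-6 family of cytokines, was counted 3, 10, 7 and 10 times with the antagonist and 2, 5, 8 and 6 times with both ligands. The groups overlapped, with p = 0.343 by exact permutation. Of the 1073 exonic bases of Cntf 78.9% are shared with Zfp91 on the same strand, so this count is uncertain beyond its size.

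Fgf2, a mitogen of glia and vascular cells, had 212.1, 210.3, 208 and 216 CPM with the antagonist and 209, 234.8, 213.4 and 235.2 CPM with both ligands. In the dual group replicates 2 and 4 lay above the A2A antagonist libraries, whereas replicates 1 and 3 lay within their range. The log2 fold change was 0.08 (SE 0.04, adjusted p-value 0.432 in edgeR), with a 95% interval of -0.0064 to 0.16. Vegfa, the principal angiogenic factor, ranged from 86.5 to 94.8 CPM and from 88.1 to 98.7 CPM, with a log2 fold change of 0.03 (SE 0.04, adjusted p-value 0.806; -0.0043 without dual replicate 1). Hgf, the ligand of Met, ranged from 13.8 to 15.3 CPM and from 12.8 to 16.3 CPM, with a log2 fold change of 0.04 (SE 0.07, adjusted p-value 0.868; -0.019 without dual replicate 3). Pdgfa, a mitogen of oligodendrocyte precursors, ranged from 27.8 to 29.9 CPM and from 26.5 to 31.1 CPM, with a log2 fold change of -0.00023 (SE 0.05, adjusted p-value 0.999), and 0.010 when scaled by total counts. For these 4 genes the 95% intervals lay between -0.11 and 0.19, or between -7.56% and 14.4%. Strand was not stated for the counting, and Fgf2 shares 9.44% of its exonic bases with Nudt6 and Pdgfa 26.1% with 6330403L08Rik, both on the opposite strand. Fgf2 and Hgf also share 3.76% and 6.74% with Gm43439 and Gm43489 on the same strand.

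**Figure D2:**
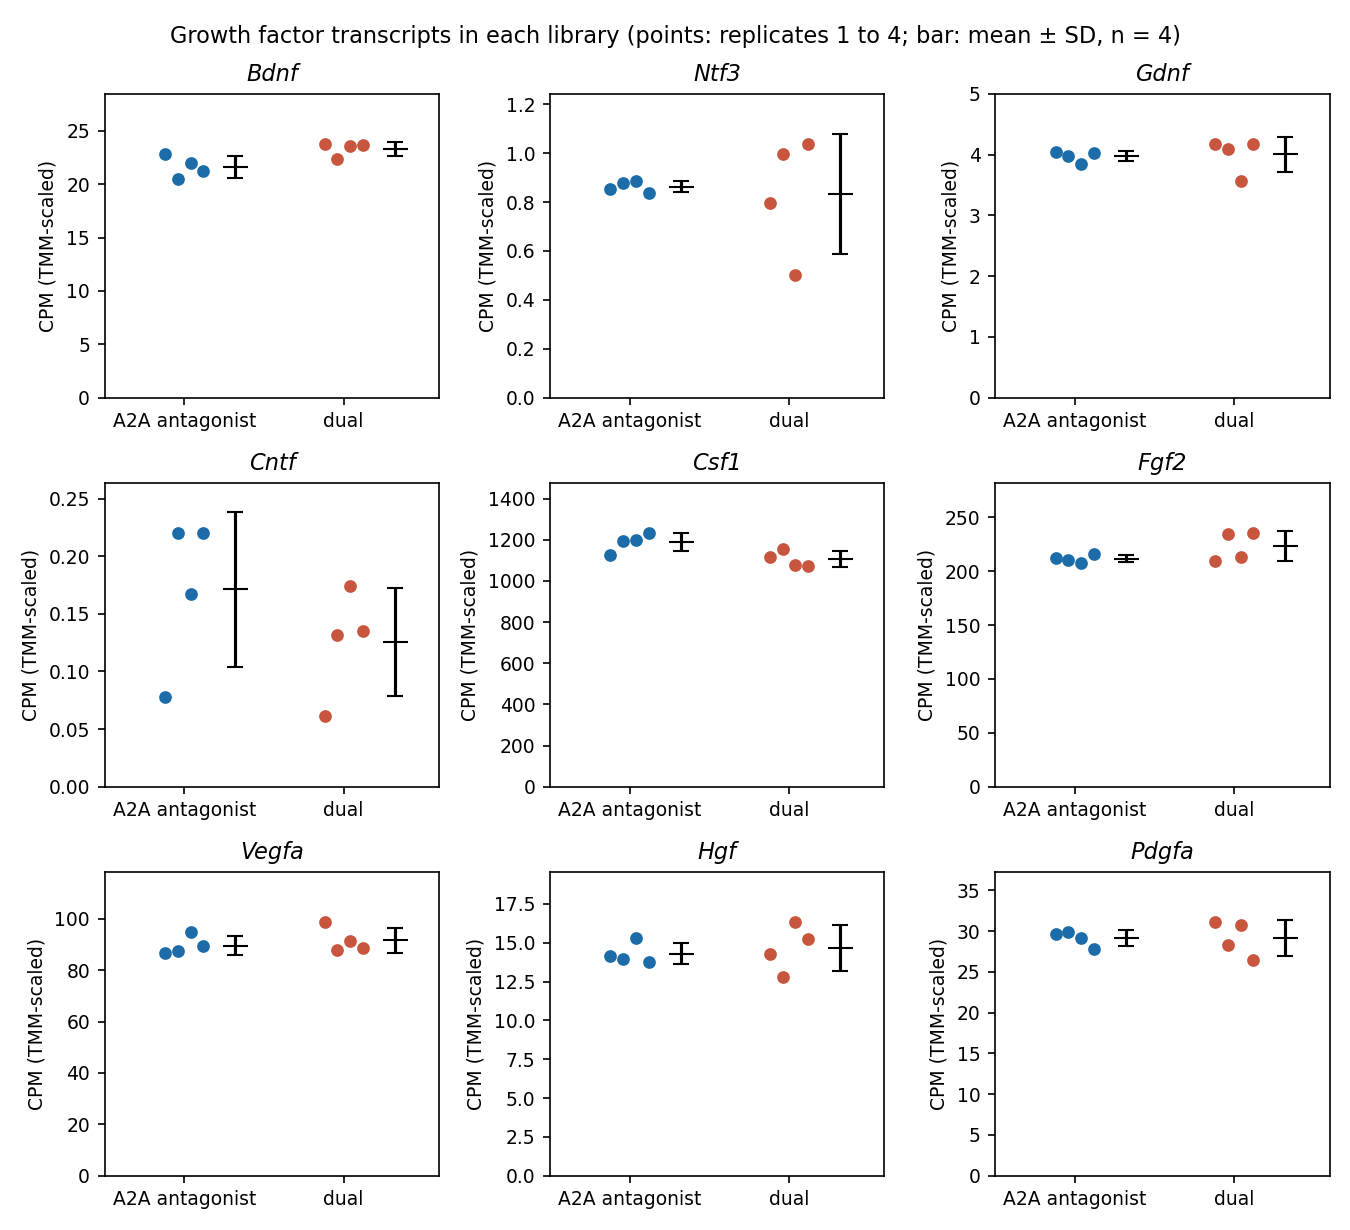
TMM-scaled CPM of each gene, with 1 point per library (replicates 1 to 4 from left to right) and the mean ± SD beside them (n = 4). The groups overlap for every gene. Csf1 has 1188 and 1106 CPM on average, and Bdnf 21.6 and 23.3. Relative to the mean, the spread is widest for Cntf in both groups. Ntf3 comes next in the dual group but is narrow in the A2A antagonist group.

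Genes of the same pathways were taken from a list of 52 (22 receptors, 23 other ligands, and 7 processing enzymes and inhibitors), of which 49 passed the low-count filter. None was called over all genes by edgeR, where 0.208% of all genes were, and 10 of 49 were below 0.05 without adjustment, where 12.8% of all genes were. The DESeq2 Wald test called 1, Vegfb, among 381 genes in all. The median log2 fold change was 0.06 for the 21 receptors tested, -0.04 for the 22 other ligands and 0.01 for the 6 processing genes. Among the receptors 16 of 21 had a positive value, as did 51.5% of all genes tested. For Sort1, a sorting receptor that binds proneurotrophins, the A2A antagonist libraries had 142.5 to 150.3 CPM and the dual libraries 152.8 to 156.4 CPM. For Gfra1, the coreceptor of Gdnf, these ranges were 38.4 to 40.6 and 40.7 to 45.3 CPM, and for Il6st, the signal-transducing chain used by Cntf, 797.5 to 804.7 and 805.5 to 872 CPM. The log2 fold changes were 0.09 (SE 0.03), 0.11 (SE 0.04) and 0.08 (SE 0.03), with adjusted p-values of 0.220, 0.274 and 0.270. Together with Csf1r these were the 4 of 21 receptors whose groups did not overlap, each higher with both ligands, where 7.42% of all genes did not overlap.

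Of the receptors whose groups overlapped, Ntrk2, the most abundant Trk receptor, ranged from 525.1 to 555.9 CPM and from 543 to 579 CPM and had a log2 fold change of 0.06 (SE 0.03, adjusted p-value 0.489). Ntrk3 had 0.09 (SE 0.09), Ngfr -0.035 (SE 0.18), Ret 0.20 (SE 0.14), Gfra2, the coreceptor of neurturin, -0.19 (SE 0.11) and Cntfr 0.16 (SE 0.07, adjusted p-value 0.338). Lifr had 0.02 (SE 0.05), Met 0.11 (SE 0.06), Kdr 0.14 (SE 0.07) and Flt1 -0.06 (SE 0.13). The coreceptors Nrp1 and Nrp2 had 0.0053 (SE 0.05) and 0.03 (SE 0.04). Fgfr1, Fgfr2 and Fgfr3 had -0.0087, 0.0086 and 0.06 on the log2 scale (SE 0.04, 0.03 and 0.04), and Pdgfra and Pdgfrb -0.01 (SE 0.03) and 0.0097 (SE 0.05). The groups did not overlap for 2 of the 22 other ligands tested, Pdgfc and Vegfb, which like Csf2 were chosen after their values were seen. Pdgfc had 16.4 to 16.8 CPM with the antagonist and 17.4 to 19.1 CPM with both ligands, with a log2 fold change of 0.13 (SE 0.05, adjusted p-value 0.309 in edgeR). Csf2, a myeloid growth factor, had the most negative value of these ligands, -0.45 (SE 0.16, adjusted p-value 0.212), and its groups overlapped. Vegfb had 32.1 to 35.4 CPM with the antagonist and 26.4 to 31.0 CPM with both ligands. The difference was -0.25 on the log2 scale (SE 0.05, adjusted p-value 0.0572 in edgeR), whereas Vegfa, as given above, was at 0.03. Vegfb was called without A2A antagonist replicate 1 and without dual replicate 2.

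**Figure D3:**
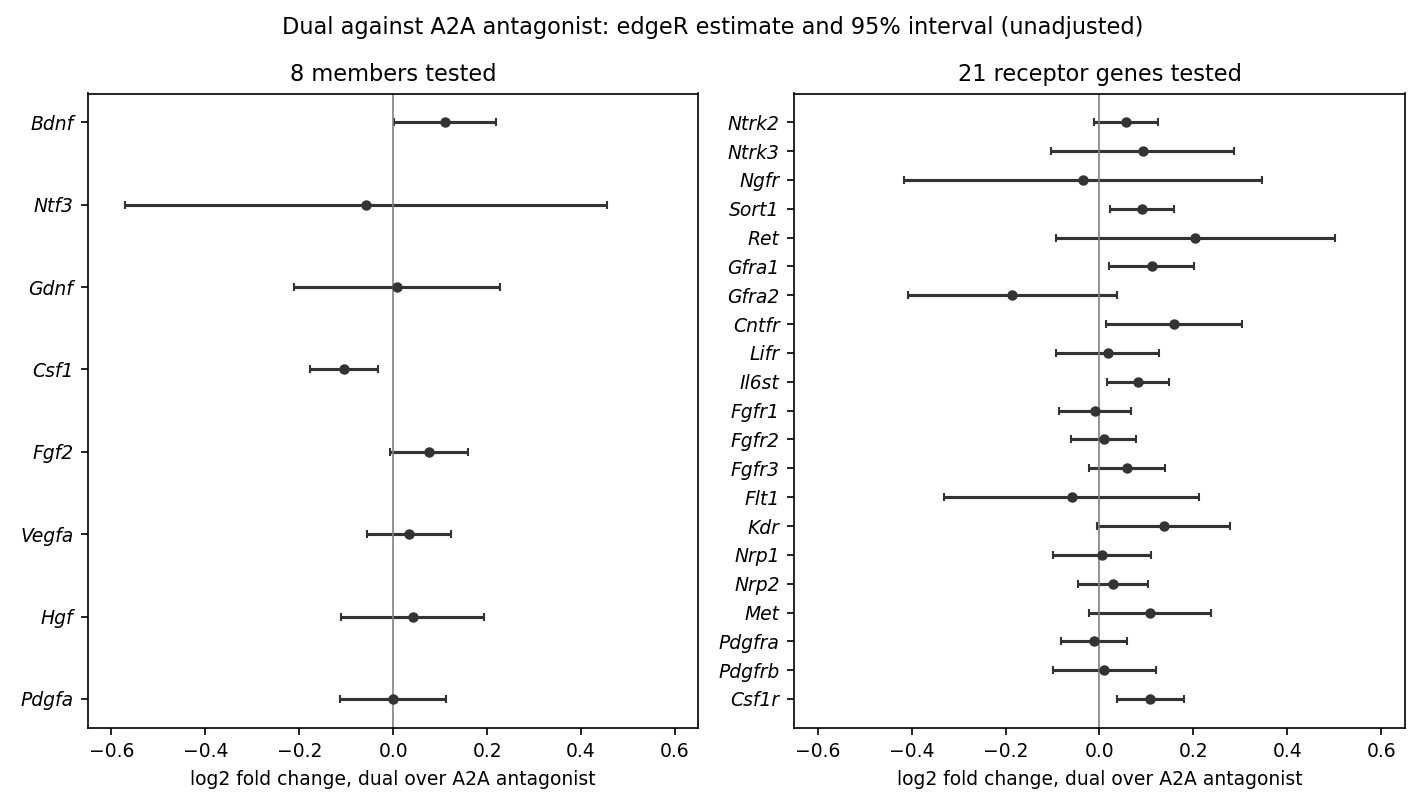
Log2 fold change of the dual over the A2A antagonist group with its 95% interval (edgeR, not adjusted) for the 8 members and 21 receptor genes tested. The intervals of Csf1 (-0.18 to -0.03) and Bdnf (0.0015 to 0.22) leave out 0 but neither passes adjustment over all genes, and that of Ntf3 is the widest among the members.

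Blockade of the A2A receptor itself was compared by the study with activated cells given vehicle. The 3 control libraries are no samples of this series, so only the mean of size-factor-scaled counts that the authors deposited for each group was used, with no error for the control and no test. The 4 A2A antagonist libraries on the same scale were set beside it. Whether the control libraries shared a culture or a sequencing run with them is not stated in the labels. Treatment and batch therefore cannot be told apart in this comparison. Bdnf had 933 as the authors' mean with the antagonist and 1822 as the authors' mean for control, or 51.2% of control. The 4 A2A antagonist libraries lay between 884 and 980, all far below that control mean. Hgf had an authors' mean of 616 against 823 (74.9%), with the libraries between 595 and 659.

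Other members lay above the control mean. Csf1 had an authors' mean of 51262 against 34444 (149%), with the A2A antagonist libraries between 48381 and 53186, and Fgf2 had 9128 against 6571 (139%), with libraries between 8974 and 9326. Ntf3 had 37.3 against 24.1 (155%), at a low count. Its libraries lay between 36.1 and 38.2, a range narrower than counting noise alone gives. Gdnf (93.3% of control), Pdgfa (105%) and Vegfa (98.7%) lay close to the control mean, which for Vegfa fell inside the range of the 4 libraries. Cntf had authors' means of 7.39 and 3.91, both under the minimum of 10 set for this comparison. Of the 8 members above that minimum, 1 (Ntf3) was over 1.5-fold higher and 1 (Bdnf) over 1.5-fold lower, where 3.71% and 10.9% of all genes were, and Csf1 lay just inside at 1.49-fold. With a minimum of 100, added after seeing the data, Ntf3 fell away, so that 0 of 7 members were over 1.5-fold higher and 1 of 7 lower, beside 1.73% and 5.91% of all genes. The control mean lay outside the range of the 4 antagonist libraries for 7 of the 8 members, and for 66.5% of all genes, and with the minimum of 100 for 6 of 7 members and 72.4% of all genes.

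**Figure D4:**
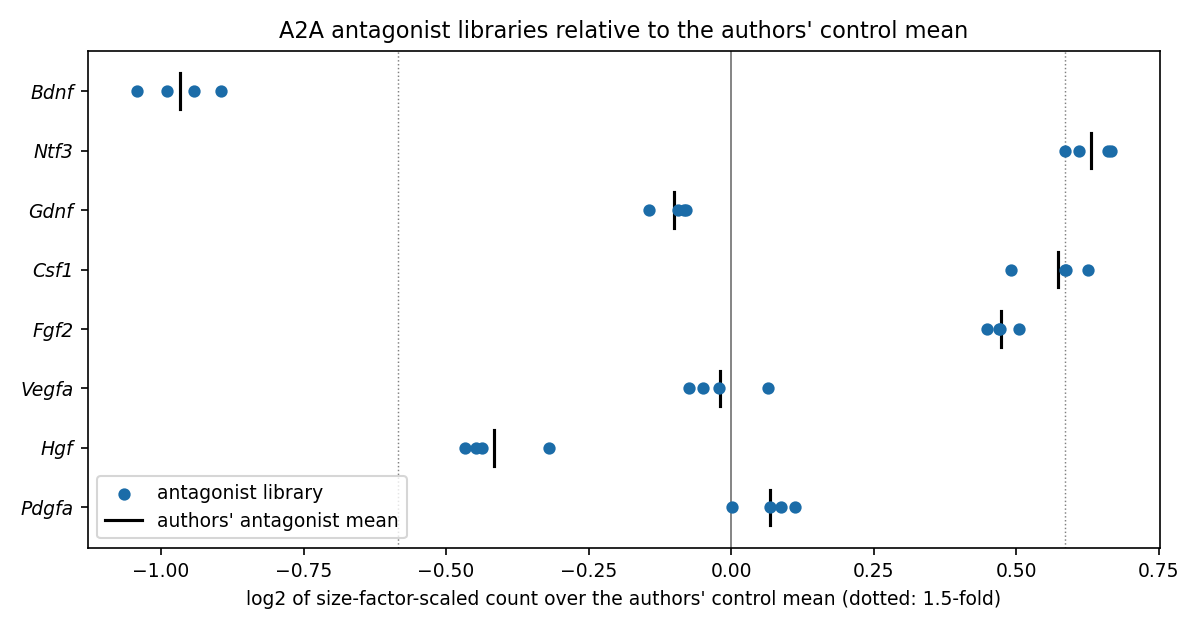
Size-factor-scaled counts of the 4 A2A antagonist libraries over the authors' control mean (log2), with the authors' antagonist mean as a black line and 1.5-fold as dotted lines. The libraries lie between -1.04 and -0.89 for Bdnf and between 0.49 and 0.63 for Csf1, while those of Vegfa lie on both sides of 0.

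Against the same control mean the receptors lay mostly lower: 16 of 21 receptors with enough counts had a lower authors' mean with the antagonist, 7 of them by over 1.5-fold (48.0% and 10.9% of all genes), and the median log2 ratio was -0.26, beside 0.01 over all genes. Those past 1.5-fold included Ngfr (40.4% of control), Ret (46.2%) and Ntrk3 (65.3%), receptors of the neurotrophins and Gdnf, and Nrp1 (55.6%), a coreceptor of Vegfa. They also included Il6st (59.6%), Nrp2 (60.6%) and Pdgfrb (58.5%). Csf1r was at 95.9%, Ntrk2 at 101% and Pdgfra at 97.8% of control. Of the 23 other ligands 15 had a lower authors' mean with the antagonist (48.0% of all genes). Over 1.5-fold, 6 were lower and 2 higher (10.9% and 3.71% of all genes). Among these ligands Ptn was at 54.3%, Csf3 at 44.1%, and Nrtn at 158%. Cell type markers moved with this comparison. All 5 fibroblast markers had an authors' mean over 1.5-fold lower with the antagonist (21.6% of control for Col1a1 to 36.8% for Dcn, median log2 ratio -1.81). The median log2 ratio was 0.47 for the 7 astrocyte markers, with Gja1 the exception at 42.6% of control, 0.37 for the 7 oligodendrocyte markers and 0.13 for the 10 microglia markers. The microglia markers went both ways, 6 higher and 4 lower with the antagonist, from Tmem119 at 58.0% of control to Cx3cr1 at 141%. All endothelial (3 of 3), mural (4 of 4) and neuronal markers (4 of 4) above the minimum of 10 had a lower authors' mean with the antagonist, with median log2 ratios of -1.40, -0.53 and -0.39. The part of these markers in the values of Bdnf, Hgf, Csf1 and Fgf2 was not tested.

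**Figure D5:**
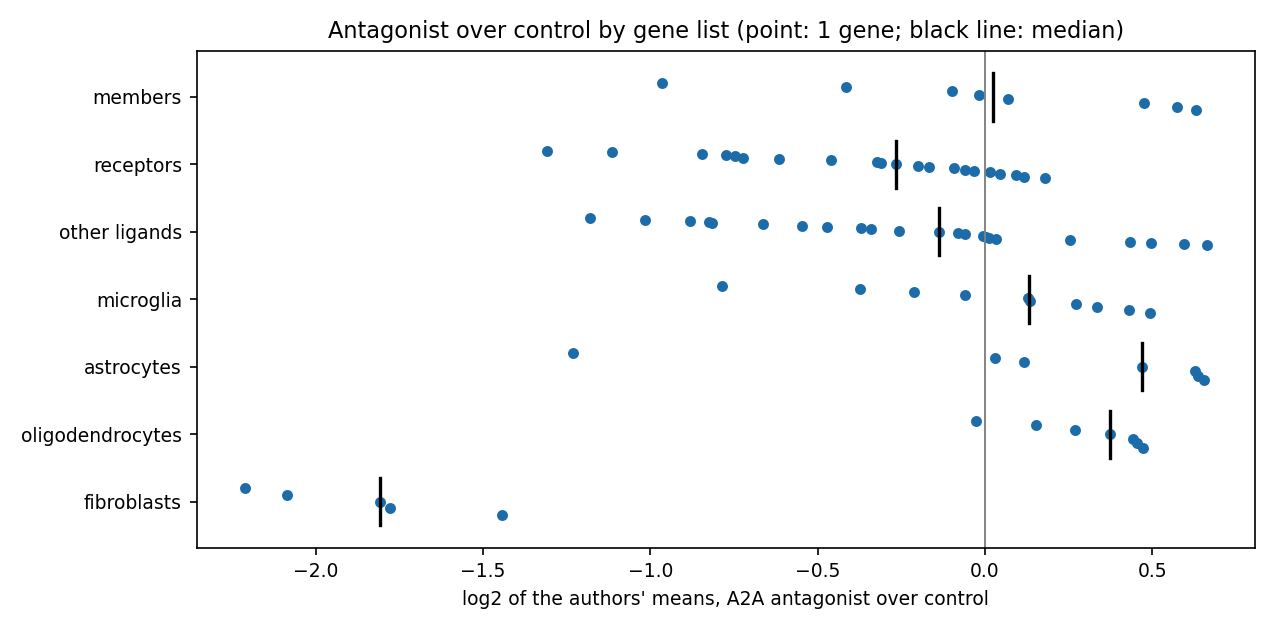
Log2 ratio of the authors' means, A2A antagonist over control, with 1 point per gene and the median of each list as a black line. The members spread to both sides (median 0.02), the receptors lie mostly below 0 (median -0.26), the fibroblast markers all lie below -1.4, and 6 of 7 astrocyte markers lie above 0.

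Between the groups of this series the largest value among the 8 members tested was 0.11 on the log2 scale, for Bdnf, whereas the authors' means of antagonist and control stood -0.97 apart for the same gene. Both comparisons share the A2A antagonist libraries. The control mean comes from libraries outside this series, where treatment and batch cannot be told apart. The values therefore do not compare the effects of the ligands. The genes whose log2 CPM, centred over the 8 libraries, lay nearest to each member of sufficient level are given as a description: Fgfrl1 and Ddrgk1 for Csf1 (root mean square distance 0.01 each), Prr14l and Hnrnph1 for Bdnf (0.02 each), and Slco1a4 and Ston2 for Fgf2 (0.03 each), out of 10714 protein-coding genes. For Vegfa they were Snx18 and Dhx57, for Hgf Slc26a2 and Gclm, and for Pdgfa Lemd2 and Traf4. The root mean square deviation of the member itself was 0.069 for Csf1, 0.073 for Bdnf and 0.068 for Fgf2. These are the smallest distances among many genes, and shared regulation was not tested.

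In the deposited coordinates, which equal those of GENCODE mouse release 21 (GRCm38) for all 9 members, the genes lie as follows, each annotated as protein coding. Bdnf (ENSMUSG00000048482) spans chr2:109674700-109727007 on the plus strand and Ntf3 (ENSMUSG00000049107) chr6:126101412-126166910 on the minus strand. Gdnf (ENSMUSG00000022144) spans chr15:7810846-7837575 on the plus strand and Cntf (ENSMUSG00000079415) chr19:12763660-12765632 on the minus strand. Csf1 (ENSMUSG00000014599) spans chr3:107741048-107760469 on the minus strand and Fgf2 (ENSMUSG00000037225) chr3:37348346-37410108 on the plus strand. Vegfa (ENSMUSG00000023951) spans chr17:46016993-46032369 on the minus strand, Hgf (ENSMUSG00000028864) chr5:16553495-16620152 on the plus strand and Pdgfa (ENSMUSG00000025856) chr5:138976014-138997370 on the minus strand.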

How the data were processed

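Reads from 8 libraries were aligned by the authors with HISAT2 and counted per gene with featureCounts 1.5.0-p3 (mm10 in the submitters' processing notes), and the strand setting was not stated. The deposited raw counts were used for all tests, the authors' FPKM columns as an alternative level, and the authors' group means of size-factor-scaled counts (signal) for control. Deposited columns of fold changes and p-values were not used, nor were 9 per-sample columns of control libraries. The test was that of edgeR 4.0.16 under R 4.3.3 (filterByExpr with a minimum count of 10, TMM factors, quasi-likelihood F test without covariates, Benjamini-Hochberg adjustment over all 18756 genes), and calls have an adjusted p-value under 0.05. Standard errors and 95% intervals were derived from the F statistic. Alternatives were DESeq2 1.42.0, other scalings, no filter, a replicate block and leaving out each library. Single values were compared with two-sided exact permutation tests (scipy 1.17.1). The deposited gene length, in bases, served for levels per kilobase. Nothing in the labels says that the libraries came from separate animals, so p-values measure the spread between these libraries, which may be technical. Pairs of libraries in a group differed by 3.80 to 9.43 times counting noise (chi-square over its degrees of freedom), and no library was a copy of another. The members and lists were chosen with earlier results of these data known. Named are all 9 members, receptors of the members, the markers, called genes of the pathway list and, for members with a mean log2 CPM of 3 or more, the 2 nearest genes of that level. Further pathway genes were picked with their values in view. The fit was tested on simulated data.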

Additional observations from a re-analysis of the deposited data

Results flagged for a closer look

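In the dual group the Bdnf value of replicate 2, 22.3 CPM, stood apart from the other three, which lay between 23.6 and 23.7 CPM. Its gap to the nearest library was 0.871 of the range of the group. The Gdnf value of dual replicate 3, 3.57 CPM, stood apart likewise, with a gap of 0.878 of the range. Of the 18 groups of 4 libraries examined in this way 2 were flagged, and chance alone flags about 1 in 20.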

How the results depend on the processing

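No member was called under any of the 13 alternatives of the fit. The sign of Csf1, Bdnf and Fgf2 held in all 13, with log2 fold changes of -0.13 to -0.09, 0.08 to 0.14 and 0.05 to 0.11, and the adjusted p-value of Csf1 ranged from 0.0619 to 0.482. Pdgfa turned positive with total counts (0.010). Without 1 library the signs of Ntf3 (-0.19 to 0.13), Gdnf (-0.016 to 0.058), Vegfa (-0.0043 to 0.061), Hgf (-0.019 to 0.10) and Pdgfa (-0.031 to 0.044) also turned in at least 1 case. Over all genes 39 were called (9 higher and 30 lower), 366 without the low-count filter (113 and 253) and 381 with the DESeq2 Wald test (107 and 274). The cause was not tested. With 1 library left out the count ranged from 0 to 172 (0 to 46 higher and 0 to 126 lower). It was 172 without A2A antagonist replicate 1, 5 and 6 without replicates 2 and 3, and 0 without replicate 4 of that group or replicate 3 of the dual group. In the pathway list 1 gene, Vegfb, was called without the filter and with DESeq2, and 0 to 1 with a library left out. With the replicate number as a block 17 genes were called (3 and 14), and no call of a member or pathway gene changed. Same-numbered libraries did not deviate together (correlations -0.21 to -0.05), and the highest value was 0.22, for A2A antagonist replicate 4 with dual replicate 2. These values cannot settle whether libraries of the 2 groups shared a culture, which the labels do not state. Levels per length moved by less than 1 SD with the authors' FPKM or with total counts. With a minimum mean of 100, added after seeing the data, 1.73% and 5.91% of genes were over 1.5-fold higher and lower than control in the authors' means, and 0 and 1 of 7 members, since Ntf3, the member over 1.5-fold higher, lay under this minimum.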
